A study of Mus musculus with 20 samples.

Results

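The mRNA levels of 10 mouse genes of the antioxidant defence were followed in stem cells and progenitors of the bone marrow that carry or lack the leptin receptor. They are the glutathione peroxidases Gpx1, Gpx3, Gpx4, Gpx7 and Gpx8, catalase (Cat), the superoxide dismutases Sod1 and Sod2, the peroxiredoxin Prdx1, and Txnip, the inhibitor of thioredoxin. They are 10 of 55573 genes in the count files, and all 10 passed the filter on low counts that left 16509 genes for testing. The set was chosen by the group levels of Gpx3 and Gpx8, which differed between groups, so the group values of those 2 genes are given as a description without a test. The other 8 genes were tested.

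Bone marrow cells came from C57BL/6 mice of 7 to 9 weeks, with 2 mice pooled per replicate. All groups were sorted from the fraction without lineage antigens that is positive for both Sca-1 and c-Kit. An antibody against the leptin receptor (Lepr), through which fat tissue signals energy stores, split each cell type. Haematopoietic stem cells (HSC, CD150+CD48-) and multipotent progenitors (MPP, CD150-CD48-) were each divided into a Lepr+ and a Lepr- group, with 5 libraries per group made from 1000 to 8000 cells. The labels name no mutation and no treatment in any group. The comparisons asked how the cells differed by receptor status and by cell type. Each replicate number had its own date in June or July and was shared by all 4 groups. The numbers were therefore taken to pair the libraries, which the labels do not state outright, and every call made with the replicate number as a block rests on this.

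Superoxide dismutases turn superoxide, a by-product of respiration, into hydrogen peroxide, and catalase, glutathione peroxidases and peroxiredoxins turn the peroxide into water. Glutathione peroxidases draw electrons from glutathione or from thiol proteins, and peroxiredoxins draw them from thioredoxin, which Txnip binds and blocks. HSC are known for low levels of reactive oxygen, and mice without Txnip are known to lose stem cells from the resting state.

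The 5 glutathione peroxidases differ at the codon that does the chemistry, and the stretch around it is shown because it separates the selenium enzymes from the cysteine enzymes. Capitals mark that codon. In Gpx1, Gpx3 and Gpx4 it is TGA, which the annotation reads as selenocysteine and not as a stop, and in Gpx7 and Gpx8 it is a cysteine codon, TGT or TGC. All 5 stretches are exonic coding sequence, read 5′ to 3′ on the gene's strand from the GRCm38 genome. They lie at chr9:108339439-108339465 (+) for Gpx1, chr11:54907244-54907270 (+) for Gpx3, chr10:80054725-80054751 (+) for Gpx4, chr4:108403418-108403444 (-) for Gpx7 and chr13:113045649-113045675 (-) for Gpx8.
Gpx1: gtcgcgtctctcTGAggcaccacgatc
Gpx3: gtagccagctacTGAggtctgacagac
Gpx4: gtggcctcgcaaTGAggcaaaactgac
Gpx7: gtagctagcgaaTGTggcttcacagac
Gpx8: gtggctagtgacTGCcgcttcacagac
The codon is number 47 of 201 in Gpx1, 73 of 226 in Gpx3, 73 of 197 in Gpx4, 56 of 186 in Gpx7 and 79 of 209 in Gpx8, counted from the start codon.

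Levels are given in CPM, which are counts divided by the library size that edgeR's TMM factors give and put on the usual CPM scale. Libraries held 9532993 to 31589794 counts in genes, and those of replicates 4 and 5 were the shallowest, with at most 15052009. Replicates 4 and 5 of Lepr+ MPP and replicate 5 of Lepr+ HSC resembled their groups least, with mean correlations of 0.815, 0.858 and 0.837. Kit, Ly6a and Ptprc, which mark the sorted blood cells, were read in all 20 libraries. Lepr transcripts ran from 0.0759 to 9.36 CPM in Lepr+ HSC and from 0 to 0.165 CPM in Lepr- HSC. They ran from 0.261 to 38.8 CPM in Lepr+ MPP and from 0 to 0.767 CPM in Lepr- MPP, so the lowest library of each Lepr+ group lay within the range of its Lepr- group. In bulk samples, fewer cells of a type and less RNA per cell cannot be told apart.

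Gpx1, the general peroxidase of cytosol and mitochondria, was by far the most abundant of the 10 mRNAs in every group. Per kilobase of exon its level was 2128 ± 954 CPM per kb in Lepr+ HSC, 2290 ± 1078 in Lepr- HSC, 2466 ± 1410 in Lepr+ MPP and 2256 ± 753 in Lepr- MPP (SD, n = 5). Prdx1, Txnip and Gpx4 came next at 156 to 334 CPM per kb over the groups. Cat lay between 55.1 and 81.2 CPM per kb. Sod1 had 51.3 to 67.9 CPM per kb over all annotated exon sequence but 318 to 420.2 CPM per kb over its principal transcript, so its place among the 10 depends on the length used. Sod2, the mitochondrial dismutase, had 14.6 to 17.9 CPM per kb. Gpx7, Gpx3 and Gpx8 were the rarest in Lepr+ HSC, Lepr- HSC and Lepr- MPP, where the highest of the 3 was Gpx7 in Lepr+ HSC at 11.3 CPM per kb. In Lepr+ MPP Gpx3 reached 49.6 ± 44.6 CPM per kb and stood above Sod2.

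**Figure D1:**
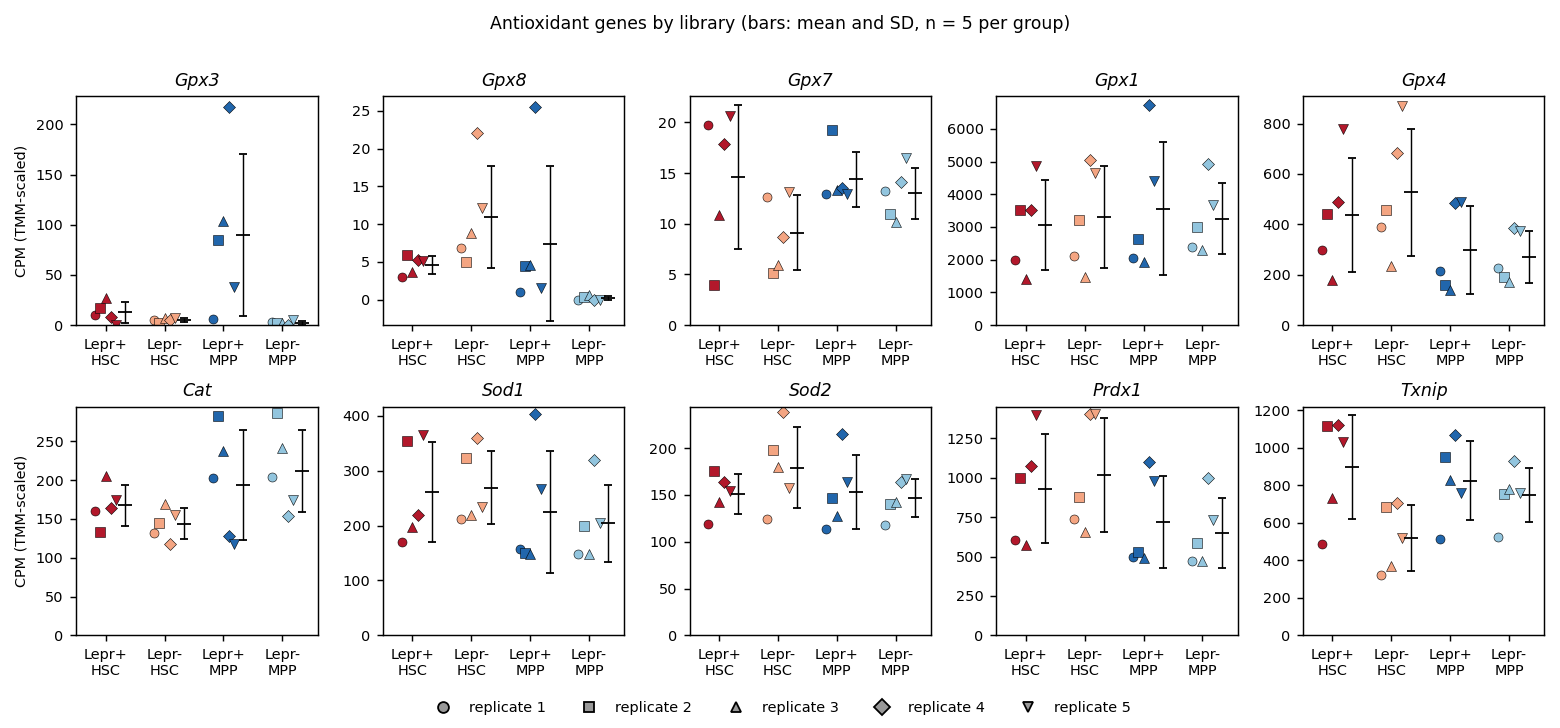
Level of each antioxidant gene in each of 20 libraries (CPM on linear axes) by group; the symbol gives the replicate number, and the bar beside each group the mean and SD of 5 libraries. Gpx3 is high in 4 of 5 Lepr+ MPP libraries, Gpx8 is near 0 in Lepr- MPP, and Txnip is lowest in Lepr- HSC, while Gpx1, Gpx4 and Prdx1 vary mostly by replicate number.

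Gpx3 encodes the secreted, selenium-containing peroxidase of blood plasma (ENSMUSG00000018339.11, chromosome 11 from 54902453 to 54910377, plus strand). It was read at its highest in Lepr+ MPP. Replicates 1 to 5 of Lepr+ MPP had 5.97, 85.1, 103.9, 217.1 and 37.8 CPM, against 2.91, 1.71, 2.01, 0.140 and 5.48 CPM in Lepr- MPP. The groups did not overlap, but replicate 1 of Lepr+ MPP was close to the highest Lepr- MPP library. Mean Gpx3 was 90.0 ± 80.9 CPM in Lepr+ MPP, against 2.45 ± 1.97 CPM in Lepr- MPP (SD, n = 5 each), a ratio of means of 36.7, with a fitted log2 difference of 5.20 ± 1.02 (SE). Without Lepr+ MPP replicate 4 the fitted difference was 4.57.

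Among HSC the difference in Gpx3 was smaller. Lepr+ HSC replicates 1 to 5 had 9.97, 17.4, 27.4, 8.499 and 0.105 CPM, against 5.54, 2.42, 7.00, 4.63 and 6.67 CPM in Lepr- HSC. Replicates 1 to 4 were higher in Lepr+ HSC, and replicate 5, with 1 count, was the lowest of all 20 libraries. Lepr+ HSC averaged 12.7 ± 10.3 CPM and Lepr- HSC 5.25 ± 1.84 CPM, and the fitted log2 difference was 1.28 ± 0.87, or 1.59 without Lepr+ HSC replicate 5. Lepr+ HSC stood below Lepr+ MPP in 4 of 5 pairs, at a log2 difference of -2.82 ± 0.91, or -2.19 without Lepr+ MPP replicate 4. In order of means Gpx3 ran from Lepr+ MPP through Lepr+ HSC and Lepr- HSC to Lepr- MPP. Only the step between Lepr- HSC and Lepr- MPP exceeded the larger SD of the neighbours, with 5 of 5 pairs higher in Lepr- HSC (log2 difference 1.10 ± 0.88).

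Among the markers of marrow stroma, Cxcl12 ran in the same order as Gpx3 over the Lepr+ MPP libraries, whereas Adipoq, Pdgfra and the sum of the list did not. Cxcl12, the chemokine that defines these stromal cells, had 8.64, 342, 394, 598 and 311 CPM in Lepr+ MPP replicates 1 to 5, and 0.227, 1.59, 0.849, 0.209 and 2.89 CPM in Lepr- MPP. In both genes replicate 1 was the lowest and replicate 4 the highest of Lepr+ MPP. The summed level of the 16 stromal markers was 507, 1370, 1190, 1070 and 3520 CPM in Lepr+ MPP replicates 1 to 5. In Lepr- MPP it was 166 to 443 CPM. Replicate 5 had the highest sum of Lepr+ MPP, while replicate 4 had the highest Gpx3. Of these 16, 6 rose in Lepr+ MPP in edgeR's test, and 3 with the replicate number as a block. Adipoq and Pdgfra, further stromal markers, had 0 counts in all 5 Lepr- MPP libraries, where a count of 0 allows up to 0.0944 to 0.216 CPM, and were read in all 5 Lepr+ MPP libraries. There Adipoq had 1.24, 30.1, 19.1, 35.7 and 39.1 CPM in replicates 1 to 5, highest in replicate 5. Pdgfra had 0.0652, 7.95, 4.04, 3.96 and 4.72 CPM, highest in replicate 2. Of 12 endothelial markers tested, 3 rose in Lepr+ MPP, and 1 with the block, and the sum of the list was 373 to 878 CPM in Lepr+ MPP, against 193 to 389 CPM in Lepr- MPP. The B and plasma cell sum was 84.2 to 4480 CPM with a median of 862 in Lepr+ MPP, and 112 to 280 CPM with a median of 181 in Lepr- MPP. Of 7 such markers tested 0 passed by group alone and 1 rose with the block. In HSC the stromal sums overlapped, at 145 to 682 CPM in Lepr+ HSC and 129 to 598 CPM in Lepr- HSC, and 0 of 16 markers passed. Cxcl12 alone had 4.43, 41.9, 64.5, 0.304 and 42.7 CPM in Lepr+ HSC replicates 1 to 5, and at most 8.16 CPM in Lepr- HSC. Replicates 2 and 3, the highest of Lepr+ HSC in Gpx3, had 8.27 and 8.99 CPM of Adipoq, and the others at most 0.752 CPM. Their B and plasma cell sums were 644 and 579 CPM, against 51.9 to 69.6 CPM in the others. Lepr+ HSC replicate 5, however, had 42.7 CPM of Cxcl12 beside its 1 count of Gpx3. The part of these cells in the Gpx3 levels was not tested.

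**Figure D2:**
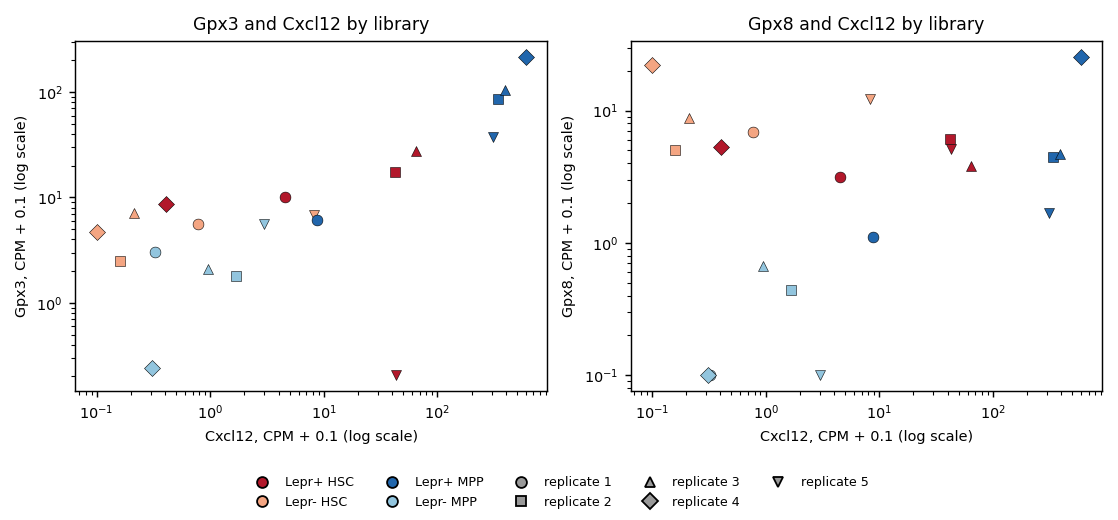
Gpx3 (left) and Gpx8 (right) against the stromal chemokine Cxcl12 in each of 20 libraries, as CPM plus 0.1 on log axes; colour gives the group and symbol the replicate number. The 4 Lepr+ MPP libraries with at least 311 CPM of Cxcl12 have the 4 highest Gpx3 values, whereas Gpx8 is as high in Lepr- HSC libraries with little Cxcl12 as in Lepr+ MPP. Within Lepr+ MPP both Gpx3 and Gpx8 run in the order of Cxcl12.

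Gpx8 encodes a peroxidase anchored in the membrane of the endoplasmic reticulum (ENSMUSG00000021760.5, chromosome 13 from 113042753 to 113046410, minus strand). It was nearly absent from Lepr- MPP and present in the other 3 groups. Lepr- MPP replicates 1 to 5 had 0, 9, 18, 0 and 0 counts, and a count of 0 allows up to 0.114, 0.209 and 0.216 CPM in replicates 1, 4 and 5. Replicates 1 to 5 of Lepr+ MPP had 1.01, 4.39, 4.60, 25.5 and 1.57 CPM, against 0, 0.341, 0.566, 0 and 0 CPM in Lepr- MPP. Every Lepr+ MPP library lay above every Lepr- MPP library. The means were 7.41 ± 10.2 CPM in Lepr+ MPP, against 0.182 ± 0.261 CPM in Lepr- MPP (n = 5 each), and the fitted log2 difference was 5.20 ± 1.13. Replicate 4 held 232 of the 542 counts of Lepr+ MPP, and without it the group mean was 2.89 ± 1.86 CPM and the log2 difference 3.86. Without Lepr- MPP replicate 3 the log2 difference was 6.18.

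In HSC Gpx8 was present with and without the receptor. Lepr+ HSC replicates 1 to 5 had 3.05, 5.96, 3.69, 5.24 and 5.05 CPM, against 6.85, 4.95, 8.77, 22.1 and 12.1 CPM in Lepr- HSC. The value was lower in Lepr+ HSC in 4 of 5 pairs, at a fitted log2 difference of -1.25 ± 0.95. Lepr+ HSC averaged 4.60 ± 1.19 CPM and Lepr- HSC 10.96 ± 6.77 CPM. Between the Lepr- cell types the groups did not overlap, with 930 counts in Lepr- HSC against 27 in Lepr- MPP and a log2 difference of 5.77 ± 1.16, or 6.75 without Lepr- MPP replicate 3. Between the Lepr+ cell types, 437 counts in Lepr+ HSC stood against 542 in Lepr+ MPP. That log2 difference was -0.68 ± 0.94, but 0.08 with the replicate number as a block and 0.66 without Lepr+ MPP replicate 4, so its sign turned with the fit. In order of means Gpx8 ran from Lepr- HSC through Lepr+ MPP and Lepr+ HSC to Lepr- MPP, and of the 3 steps that from Lepr+ HSC to Lepr- MPP exceeded the larger SD of the neighbours.

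The group medians of Gpx8 were 5.05 CPM in Lepr+ HSC, 8.77 in Lepr- HSC, 4.39 in Lepr+ MPP and 0 in Lepr- MPP. The median stromal and endothelial sums did not follow this order of the groups. The median stromal sum was 323 CPM in Lepr+ HSC, 189 in Lepr- HSC, 1190 in Lepr+ MPP and 383 in Lepr- MPP, so it was lowest where Gpx8 was highest. The median endothelial sum was 423 CPM in Lepr+ HSC, 355 in Lepr- HSC, 714 in Lepr+ MPP and 283 in Lepr- MPP, lowest where Gpx8 was lowest. The sum for megakaryocytes, the makers of platelets, was 1500 to 3030 CPM in Lepr+ HSC and 2850 to 5890 CPM in Lepr- HSC. It was 665 to 1220 CPM in Lepr+ MPP and 651 to 1020 CPM in Lepr- MPP. Its medians were 2610 CPM in Lepr+ HSC, 4660 in Lepr- HSC, 1030 in Lepr+ MPP and 775 in Lepr- MPP. They ran in the order of the Gpx8 medians, but not in that of the Gpx8 means. Of 9 megakaryocyte markers tested, 6 rose in Lepr- HSC over Lepr- MPP, and 7 with the block. Lepr- HSC libraries, which held the highest Gpx8 mean, had 0 counts of Adipoq and of Pdgfra in 4 of 5 libraries. Their Cxcl12 was 8.16 CPM in replicate 5 and at most 0.675 CPM in the others. Over the Lepr+ MPP libraries, however, Gpx8 ran in the same order as Cxcl12. Both were lowest in replicate 1 (1.01 and 8.64 CPM) and highest in replicate 4 (25.5 and 598 CPM). Adipoq, Pdgfra and the stromal and endothelial sums did not run in that order, although each was lowest in replicate 1. The part of these cells in the Gpx8 levels was not tested.

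Gpx7, the soluble relative of Gpx8 in the endoplasmic reticulum, did not share its pattern. It had 4.01 to 20.6 CPM in Lepr+ HSC, 5.19 to 13.2 CPM in Lepr- HSC, 12.9 to 19.2 CPM in Lepr+ MPP and 10.2 to 16.5 CPM in Lepr- MPP. All 4 groups overlapped in Gpx7, including Lepr- MPP, where Gpx8 was nearly absent. It was higher in Lepr+ HSC in 4 of 5 pairs (log2 difference 0.68 ± 0.39, adjusted p = 0.88) and lower in Lepr- HSC than in Lepr- MPP in 5 of 5 (-0.51 ± 0.39, adjusted p = 0.719). Over 20 libraries Gpx7 and Gpx8 correlated at r = -0.224, a description of libraries that share depth and replicate number.

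Txnip (ENSMUSG00000038393.14, chromosome 3 from 96557957 to 96561883, plus strand) was the tested gene that differed by receptor status in HSC once replicate numbers were taken into account. Lepr+ HSC replicates 1 to 5 had 486, 1116, 732, 1124 and 1029 CPM, against 321, 682, 371, 705 and 521 CPM in Lepr- HSC. The higher value fell to Lepr+ HSC in 5 of 5 pairs, although the groups as wholes overlapped. Lepr+ HSC averaged 898 ± 280 CPM and Lepr- HSC 520 ± 175 CPM (SD, n = 5 each). By group alone the log2 difference of 0.79 ± 0.27 did not pass (edgeR adjusted p = 0.395). With the replicate number as a block Txnip rose by 0.79 ± 0.12 (edgeR adjusted p = 0.0038).

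Txnip was the 1 of 8 tested genes called between Lepr+ and Lepr- HSC with the block, and 0 of 8 were called without it. Over all 16509 genes 1.02% were called with the block, 0.763% as higher in Lepr+ HSC, and 0.103% without it. DESeq2 and limma voom, run without the block, called 0 of the 8, and Txnip alone had an unadjusted p under 0.05 in edgeR, as did 6.96% of all genes. Leaving out any 1 replicate number kept the blocked call, with log2 differences of 0.74 to 0.85 and adjusted p from 0.024 to 0.0438. Beside Txnip, 3 of 9 megakaryocyte markers fell and 4 of 12 stem and progenitor markers rose in Lepr+ HSC with the block, and the part of these cells was not tested. Within June alone (3 pairs) the blocked difference was 0.86 (adjusted p = 0.16), and within July alone (2 pairs) 0.73 (adjusted p = 1). Without the 3 libraries least like their group it was 0.73 (adjusted p = 0.0227).

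Among MPP, Txnip did not differ beyond the spread. Lepr+ MPP replicates 1 to 5 had 513, 953, 828, 1066 and 759 CPM, against 524, 756, 778, 928 and 756 CPM in Lepr- MPP. In all, 4 of the 5 pairs were higher in Lepr+ MPP, at a log2 difference of 0.14 ± 0.27 (adjusted p = 1), or 0.11 ± 0.12 with the block (adjusted p = 0.999). The test of the difference between the receptor effects in HSC and in MPP gave 0.67 ± 0.16 with the block and did not pass (adjusted p = 0.531), so a receptor effect limited to HSC is not shown. Lepr- HSC were the low group, since their Txnip also stood below Lepr- MPP in 5 of 5 pairs. That log2 difference was -0.53 ± 0.27 by group alone (adjusted p = 0.45), and Txnip fell by 0.57 ± 0.12 with the block (adjusted p = 0.00591). It lost the blocked call without replicate 3 (adjusted p = 0.0503), held it in June (-0.78, adjusted p = 0.0458) and not in July (-0.31, adjusted p = 0.789).

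Of the exon sequence of Txnip, 606 bases (19.4%) overlap the antisense gene Gm15441, and reads carried no strand. Gm15441 had 328 counts in Lepr+ HSC, 197 in Lepr- HSC, 309 in Lepr+ MPP and 279 in Lepr- MPP, while Txnip had 83851 counts in Lepr+ HSC and 45687 in Lepr- HSC. Lepr- HSC were also the low group in the antisense gene. How read pairs in the shared bases were divided is not given in the sources used here.

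The promoter of Txnip is shown because genes that answer to glucose were read beside it. The 250 bases before the RefSeq start (GRCm38.p6, chr3:96557707-96557956, plus strand) hold, in capitals from 5′ to 3′, a CCAAT box on the minus strand, the forkhead motif, a CCAAT box on the plus strand and the carbohydrate response element.
Txnip: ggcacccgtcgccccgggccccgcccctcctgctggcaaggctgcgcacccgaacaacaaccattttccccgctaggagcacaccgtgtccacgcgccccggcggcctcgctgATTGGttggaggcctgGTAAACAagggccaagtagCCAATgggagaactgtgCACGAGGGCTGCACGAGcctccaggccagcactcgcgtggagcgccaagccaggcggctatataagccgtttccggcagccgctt
The forkhead motif GTAAACA begins 121 bases before the start and the carbohydrate element, 2 copies of CACGNG with 5 bases between them, to which MondoA and its relatives are known to bind, 85 bases before it. Both strands were searched in 32851 RefSeq promoters of this length. GTAAACA was held by 3.17%, CCAAT by 33.8% and the carbohydrate element by 0.0457%, which is 15 promoters. The core of the antioxidant response element, TGACNNNGC, was held by 10.2% and among the 10 genes by the promoters of Sod1 and Prdx1, both on the minus strand. The promoters of Gpx1, Gpx7 and Gpx8 held none of these 4 motifs.

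Of the genes that answer to glucose or MondoA beside Txnip, 6 of 7 were tested and 0 passed between Lepr+ and Lepr- HSC. Slc2a1, a glucose transporter, had a log2 difference of 0.69 ± 0.23 with the block, higher in 5 of 5 pairs (adjusted p = 0.226). Mlxip, which encodes MondoA itself, had -0.04 ± 0.12. Arrdc3 and Srxn1 come from other redox lists. Arrdc3, an arrestin relative of Txnip, averaged 85.0 CPM in the Lepr+ HSC libraries and 43.2 CPM in the Lepr- ones, higher in 5 of 5 pairs (0.99 ± 0.27, adjusted p = 0.127 with the block). Srxn1, the sulfiredoxin that repairs over-oxidised peroxiredoxins, averaged 69.5 CPM in the Lepr+ HSC libraries and 38.6 CPM in the Lepr- ones, also in 5 of 5 pairs (0.85 ± 0.23, adjusted p = 0.106 with the block).

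Gpx4, the selenium peroxidase that reduces lipid peroxides in membranes and guards against ferroptosis (ENSMUSG00000075706.10, chromosome 10 from 80047166 to 80056439, plus strand), was higher in HSC than in MPP without the receptor. Replicates 1 to 5 of Lepr- HSC had 391, 457, 233, 682 and 871 CPM, against 225, 190, 172, 387 and 373 CPM in Lepr- MPP. Every pair was higher in Lepr- HSC, although the groups as wholes overlapped. By group alone the log2 difference was 0.97 ± 0.43 (edgeR adjusted p = 0.356), and with the block Gpx4 rose by 0.90 ± 0.17 (adjusted p = 0.00352). It kept the blocked call without any 1 replicate number (0.80 to 1.01, adjusted p from 0.00711 to 0.0363). Within June it was 0.79 (adjusted p = 0.0546) and within July 1.01 (adjusted p = 0.676).

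Among Lepr+ cells Gpx4 followed the same order without passing. Lepr+ HSC replicates 1 to 5 had 298, 442.5, 178, 488 and 777 CPM, against 215, 161, 139, 483 and 488 CPM in Lepr+ MPP, higher in 5 of 5 pairs at 0.60 ± 0.17 with the block (adjusted p = 0.0971). Between Lepr+ and Lepr- cells the log2 difference was -0.27 ± 0.43 in HSC and 0.14 ± 0.43 in MPP (adjusted p = 1 in each). The processed pseudogene Gpx4-ps2 averaged 31.7 CPM in Lepr+ HSC, 37 in Lepr- HSC, 19.8 in Lepr+ MPP and 19.4 in Lepr- MPP, the same order of cell types. How reads that match both were assigned is not given in the sources used here.

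Prdx1, an abundant peroxiredoxin of the cytosol (ENSMUSG00000028691.12, chromosome 4 from 116685544 to 116700822, plus strand), ran parallel to Gpx4. Lepr- HSC replicates 1 to 5 had 738, 877, 657, 1404 and 1404 CPM, against 473, 584, 472, 1002 and 732 CPM in Lepr- MPP. All 5 pairs were higher in Lepr- HSC. The log2 difference was 0.64 ± 0.32 by group alone (adjusted p = 0.442), and Prdx1 rose by 0.62 ± 0.12 with the block (adjusted p = 0.00338). Without any 1 replicate number it was 0.53 to 0.65 (adjusted p from 0.00806 to 0.0446), within June 0.67 (adjusted p = 0.0448) and within July 0.50 (adjusted p = 0.764). Between Lepr+ HSC and Lepr+ MPP it was 0.39 ± 0.12 with the block, higher in 4 of 5 pairs (adjusted p = 0.121). Over 20 libraries Gpx4 and Prdx1 correlated at r = 0.949, and at 0.961 after the mean of each replicate number was removed.

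Catalase mRNA ran the other way without passing. Cat had 117.6 to 170 CPM in Lepr- HSC with a median of 145 CPM, and 154 to 287 CPM in Lepr- MPP with a median of 204.5 CPM. All 5 pairs were lower in Lepr- HSC, with log2 differences of -0.56 ± 0.23 by group alone (adjusted p = 0.284) and -0.53 ± 0.18 with the block (adjusted p = 0.0939). Without the 3 libraries least like their group the blocked difference passed (-0.55, adjusted p = 0.0326). The correlation of Cat with Gpx4 over 20 libraries was -0.785, and -0.754 after the mean of each replicate number was removed. In Lepr+ HSC Cat had 134 to 206 CPM and in Lepr+ MPP 117.9 to 283 CPM.

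Of the 8 tested genes, 3 were thus called between Lepr- HSC and Lepr- MPP with the block, Gpx4 and Prdx1 higher and Txnip lower, and 0 without it. Over all genes 7.50% were called with the block, 4.07% as higher and 3.43% as lower in Lepr- HSC, and 2.73% without it. Without the block 2 of the 8, Gpx4 and Cat, had an unadjusted p under 0.05 in edgeR, as did 12.3% of all genes, and DESeq2 and limma voom also called 0. Markers moved with the cell types as well, since the stem and progenitor list summed to 1900 to 2790 CPM in Lepr- HSC, against 3850 to 5010 CPM in Lepr- MPP, beside the megakaryocyte sums above. The stem and progenitor list mixes genes of both cell types, so its sum does not measure stem cell markers alone. Of its 12 genes, 1 rose and 6 fell in Lepr- HSC with the block. For each replicate number, Lepr- HSC also had a larger share of read pairs aligned more than once. It was 9.36%, 11.63%, 8.16%, 13.78% and 13.34% in Lepr- HSC replicates 1 to 5. In Lepr- MPP it was 8.25%, 8.65%, 8.05%, 11.81% and 10.63%. The block does not remove such differences within a number. The part of the marked cells and of alignment in the Gpx4, Prdx1, Cat and Txnip differences was not tested.

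Sod1, the copper and zinc dismutase of the cytosol, and Sod2 did not pass in any comparison. Sod1 had 171 to 365.5 CPM in Lepr+ HSC, 211 to 359 CPM in Lepr- HSC, 148.5 to 402.5 CPM in Lepr+ MPP and 148 to 319 CPM in Lepr- MPP. Sod2 had 119 to 175.5 CPM in Lepr+ HSC, 124 to 238 in Lepr- HSC, 113 to 215.5 in Lepr+ MPP and 118 to 167 in Lepr- MPP. Sod1 was higher in Lepr- HSC than in Lepr- MPP in 5 of 5 pairs (0.44 ± 0.21 with the block, adjusted p = 0.259). Sod2 was lower in Lepr+ than in Lepr- HSC in 5 of 5 pairs (-0.23 ± 0.11 with the block, adjusted p = 0.454). Gpx1 gave log2 differences between -0.21 and 0.13 in the 4 comparisons by group alone (SE 0.41 each, adjusted p from 0.995 to 1).

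Between Lepr+ and Lepr- MPP, 0 of the 8 tested genes passed with or without the block, with 0 at an unadjusted p under 0.05 by group alone, and neither DESeq2 nor limma voom called any. Over all genes 0.200% were called without the block and 0.103% with it, and 4.41% had an unadjusted p under 0.05. Their log2 differences by group alone lay between -0.13 for Cat and 0.15 for Gpx7. Between Lepr+ HSC and Lepr+ MPP 0 of the 8 passed, against 0.466% of all genes without the block and 1.77% with it, and 0 of the 8 had an unadjusted p under 0.05 by group alone, against 7.89% of all genes. DESeq2 and limma voom called none of them. In the test of the difference of receptor effects 0 of the 8 and 0% of all genes passed in edgeR, DESeq2 called 29 genes and 0 of the 8, and 0 of the 8 had an unadjusted p under 0.05 by group alone, against 3.20% of all genes.

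**Figure D3:**
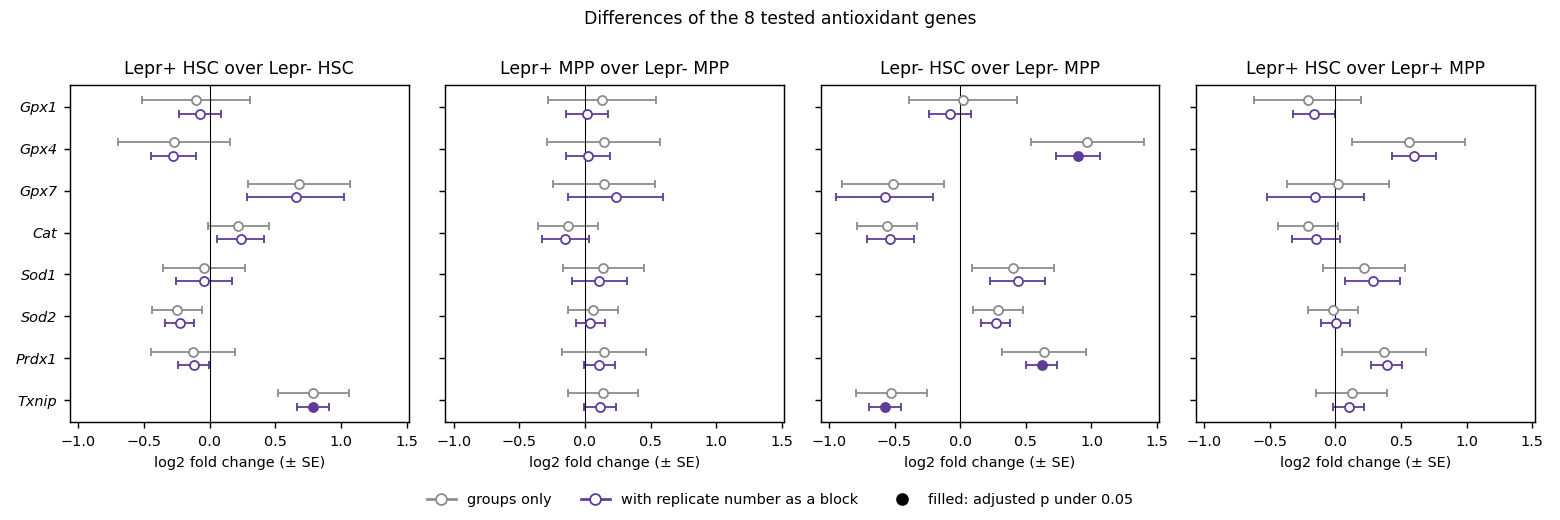
Log2 fold change (± SE) of the 8 tested antioxidant genes in 4 comparisons, from the fit with groups only (grey) and with the replicate number as a block (purple); filled points have an adjusted p under 0.05. The filled points are Txnip in Lepr+ over Lepr- HSC (0.79) and, in Lepr- HSC over Lepr- MPP, Gpx4 (0.90), Prdx1 (0.62) and Txnip (-0.57), all with the block.

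Replicate number, read from the design text and the dates as a pool of mice shared by the 4 groups, held more of the variance of most of these genes than the groups did. It took 87.1% of the variance of log2 CPM of Gpx1 over 20 libraries, against 1.21% for the group. The shares for replicate number and group were 69.9% and 23.2% in Prdx1, 66.7% and 25.5% in Gpx4, 66.4% and 14.1% in Sod2, 54.7% and 37.3% in Txnip and 51.4% and 13.9% in Sod1. Only in Gpx3 (5.98% and 51.6%) and Gpx8 (6.61% and 80.2%), chosen for their group values, did the group hold more.

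The shift had the same sign in 8 of the 10 genes. In replicates 4 and 5 against replicates 1 to 3, mean log2 levels were higher by 1.19 in Gpx4, 1.04 in Gpx1, 0.87 in Prdx1, 0.58 in Sod1, 0.45 in Gpx7, 0.41 in Txnip, 0.31 in Sod2 and 0.29 in Gpx8. The shift was negative in Cat (-0.40) and in Gpx3 (-0.78). The median shift of all tested genes was smaller the longer their exons. It was 0.0812 for 1702 genes of up to 1000 bases, 0.000857 for 2250 genes of up to 2000 bases, -0.235 for 6771 genes of up to 5000 bases and -0.661 for 5779 longer genes. Gpx1, Gpx4, Gpx7, Gpx3 and Gpx8 have merged exons of 1441, 1724, 1289, 1813 and 1048 bases. Cat has 2613 bases. Prdx1, Txnip, Sod1 and Sod2, with 3043, 3123, 3970 and 10008 bases, shifted up, while the medians of genes of such length were negative. This again depends on the length used, since the classes rest on merged exons. The principal transcript of Sod1 has 641 bases, within the class of up to 1000 bases, whose median was positive. Those of Prdx1, Txnip and Sod2 have 2294, 2795 and 5861 bases. Replicates 4 and 5 were also the shallowest. The part of length and depth in the shifts was not tested.

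**Figure D4:**
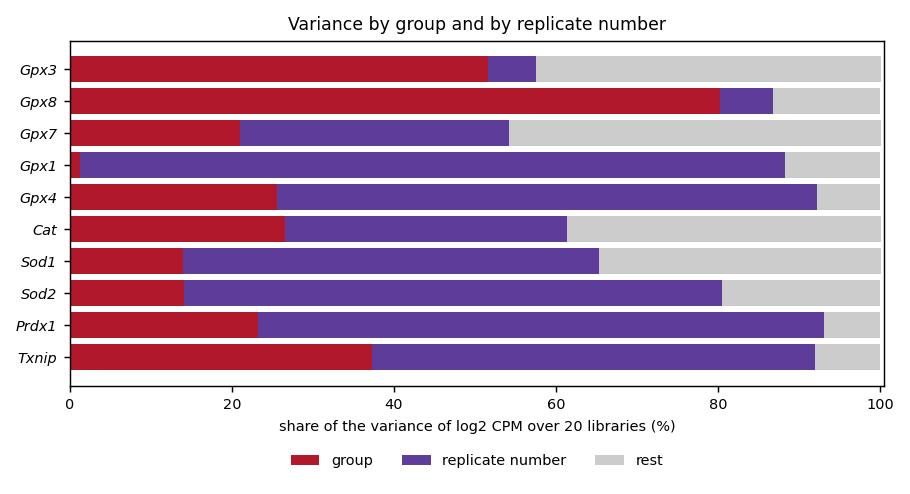
Share of the variance of log2 CPM over 20 libraries (%) that falls to group (red), replicate number (purple) and the rest (grey) for each antioxidant gene. Replicate number holds 87.1% in Gpx1, and group holds 80.2% in Gpx8 and 51.6% in Gpx3.

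For each gene the 3 genes with the most similar profile were found by Pearson's r of log2 CPM over 20 libraries, among genes with a mean of at least 5 CPM. These correlations describe libraries that share replicate numbers and depth. Gpx3 was most like Errfi1, a feedback inhibitor of the EGF receptor (0.936), Cdr2l (0.855) and S100a16 (0.836). Gpx8 was most like Lhfp (0.842), the glutathione transferase Gstm2 (0.833) and Mfap2, a microfibril protein (0.801). Txnip was most like the transcription factor Klf10 (0.932), Tapbp, the chaperone tapasin (0.923), and S1pr1, a receptor of sphingosine phosphate (0.902). Gpx4 and Prdx1 were most like genes that encode mitochondrial proteins. They were Uqcc2 (0.985), Mrpl14 (0.981) and Chchd1 (0.979) for Gpx4 and Fmc1 (0.984), Romo1 (0.981) and Atp5h (0.981) for Prdx1. The gene most like each other member was Rps9 for Gpx1 (0.97), Gem for Gpx7 (0.83), Ppp1r13b for Cat (0.90), Trappc2 for Sod1 (0.933) and Fbl for Sod2 (0.925). By Spearman's rho 1 or 2 of the 3 genes were the same for 9 of the 10, and 0 for Gpx7. By Pearson's r of deviations from group means 1 of the 3 was the same for 6 of the 10, and 0 for Gpx1, Gpx8, Cat and Prdx1.

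The rest of the redox network was read through lists of 159 further genes in the files, of which 148 were tested. Between Lepr- HSC and Lepr- MPP 4 of 148 passed without the block, beside 2.73% of all genes, a share near that background. DESeq2 called 12 and limma voom 8, and without 1 library edgeR called 2 to 8, with 2 without Lepr- HSC replicate 2 or 3 and 8 without Lepr+ HSC replicate 5. Gstm2, from a family of detoxifying transferases, rose to a mean of 19 ± 7.75 CPM in HSC, while MPP had 1.18 ± 0.338 CPM (4.01 ± 0.51, adjusted p = 0.000154, 5 of 5 pairs). Mgst1, a membrane-bound transferase, fell to 10.9 CPM in HSC, while MPP had 45.5 CPM (-2.06 ± 0.46, adjusted p = 0.016, lower in 5 of 5 pairs). Sqstm1, the autophagy adaptor that frees NRF2 (-0.72 ± 0.13, adjusted p = 0.00212), and Rac2, a GTPase of the phagocyte NADPH oxidase (-0.53 ± 0.14, adjusted p = 0.0421), fell in 5 of 5 pairs. The median log2 difference of the 148 genes was -0.0237, beside 0.00621 over all genes. Gstm2 and Gstm1 belong to a family of near-identical copies whose reads may be shared.

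With the block 16 of the 148 passed between Lepr- HSC and Lepr- MPP, 7 higher and 9 lower, beside 7.50% of all genes, 4.07% higher and 3.43% lower. The median was -0.0591 beside -0.0149 over all genes. The blocked count was 10 to 16 without 1 replicate number, lowest when replicate 3 was dropped. It was 24 when the 3 least typical libraries were dropped, 8 in June and 0 in July. Of 6 genes of the other peroxiredoxins and sulfiredoxin 1 rose, Prdx4 of the endoplasmic reticulum (1.11 ± 0.22, adjusted p = 0.00567). Of 11 genes of the thioredoxin system 1 rose, thioredoxin itself (Txn1, 0.74 ± 0.15, adjusted p = 0.00564). Of 11 other selenoproteins 1 rose, Selenom (1.42 ± 0.22, adjusted p = 0.000741). Of 15 genes of lipid peroxidation and iron 3 rose and 1 fell. The lipoxygenases Alox5 (27.7 CPM in Lepr- HSC, 1.65 CPM in Lepr- MPP, adjusted p = 0.0415) and Alox12 (7.32 CPM in Lepr- HSC, 0.403 CPM in Lepr- MPP, adjusted p = 0.00635) rose, as did the biliverdin reductase Blvra (0.75 ± 0.15), and the ferritin receptor Ncoa4 fell (-0.72 ± 0.11). Of 17 glutathione transferases Gstm2 rose and Gstm1 and Mgst1 fell. The other falls were 2 of 13 genes of FoxO and stress sensing (Sirt3, -0.45, and Sesn1, -0.77), 1 of 8 of the NADPH oxidases (Rac2, -0.52), Sqstm1 among 11 NRF2 genes, Taldo1 among 11 of NADPH supply and Mlxip among 6 genes beside Txnip. None passed among 15 genes of glutathione synthesis and reduction, 11 of selenoprotein synthesis, 11 of oxidative folding and 2 of the dismutase list. Gpx2, Gpx5 and Gpx6 did not pass the filter on low counts.

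**Figure D5:**
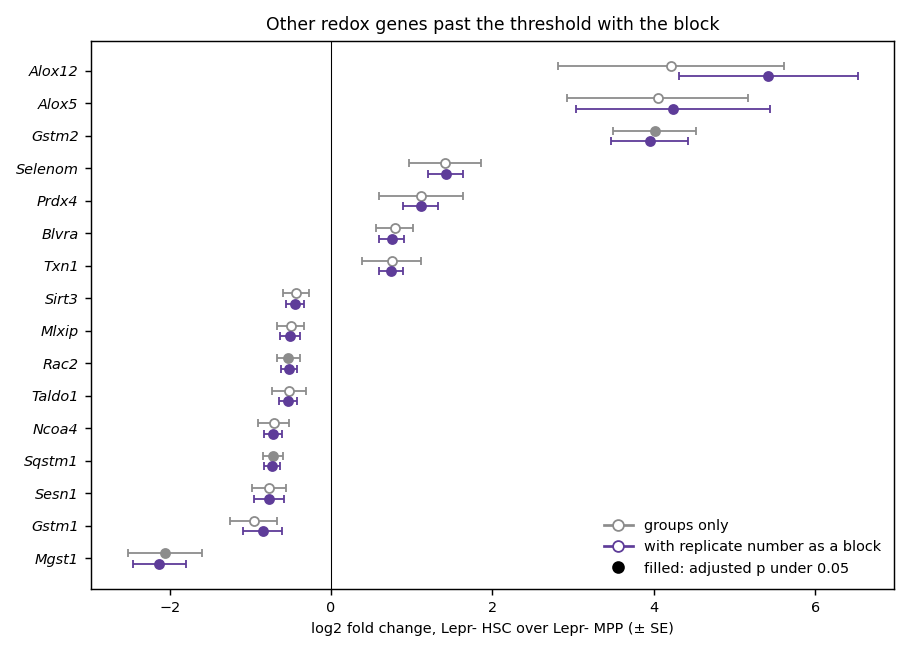
Log2 fold change (± SE) of Lepr- HSC over Lepr- MPP for the 16 other redox genes called with the replicate number as a block (purple), beside the fit with groups only (grey); filled points have an adjusted p under 0.05. Alox12, Alox5 and Gstm2 are the highest, Mgst1 is the lowest, and 4 of the 16 are called in both fits.

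Between Lepr+ and Lepr- HSC the redox lists gave 0 calls of 148 without the block in edgeR, DESeq2 or limma voom. In edgeR 0.103% of all genes were called. An unadjusted p under 0.05 in edgeR fell to 12 of the 148, beside 6.96% of all genes. With the block 1 of the 148 was called, beside 1.02% of all genes, a share near that background. That gene was Mgst1, which averaged 29.7 CPM in the Lepr+ libraries and 10.9 CPM in the Lepr- ones (1.44 ± 0.33, adjusted p = 0.0488, higher in 5 of 5 pairs). The blocked fit called 0 of the 148 without replicate 1, 2, 3 or 5, without the 3 libraries least like their group, and in June or July alone, and 2 without replicate 4. Between Lepr+ HSC and Lepr+ MPP 3 of the 148 passed with the block, beside 1.77% of all genes, a share near that background. They were Mgst1 (-1.63 ± 0.33, edgeR adjusted p = 0.0174) and Taldo1 (-0.49 ± 0.11, adjusted p = 0.0239), both lower, and Selenom, higher (0.96 ± 0.22, adjusted p = 0.033). Without 1 replicate number the blocked count was 0 to 2, with 0 without replicate 1 or 3, and it was 2 without the 3 libraries and 0 in either month. Without the block 0 passed in edgeR, beside 0.466% of all genes, and 7 in DESeq2. An unadjusted p under 0.05 in edgeR fell to 24 of the 148, beside 7.89% of all genes.

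Between Lepr+ and Lepr- MPP 0 of 148 passed in either fit of edgeR, beside 0.200% of all genes without the block and 0.103% with it. By group alone 10 of the 148 had an unadjusted p under 0.05 in edgeR, beside 4.41% of all genes. DESeq2 called 1 of the 148 and limma voom 0. The smallest p belonged to Gstm2, with 5.55 CPM in Lepr+ MPP, against 1.18 CPM in Lepr- MPP (2.22 ± 0.48, adjusted p = 0.0699, higher in 5 of 5 pairs). Selenop, the plasma carrier of selenium, averaged 353 CPM in Lepr+ MPP, against 207 CPM in Lepr- MPP (0.77 ± 0.22, adjusted p = 0.248, 5 of 5 pairs). Sod3, the secreted dismutase, averaged 4.17 ± 3.18 CPM in Lepr+ MPP, against 0.0189 ± 0.0422 CPM in Lepr- MPP (adjusted p = 0.215, 5 of 5 pairs). Selenop was also higher in Lepr+ HSC than in Lepr- HSC in 5 of 5 pairs (0.55 ± 0.22, adjusted p = 0.553). The part of stromal RNA in these values was not tested.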

How the data were processed

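The authors deposited a table of unnormalized counts for each library, with 55573 genes, made with cutadapt 2.1, STAR 2.7.1a and HTSeq 0.11.2 on GRCm38, per the submitters' processing notes. cDNA came from SMART-Seq v4 and libraries from Nextera XT without strand, per the labels' protocols. The counting mode is not given in the sources used here. Between 7.22% and 17.7% of read pairs fell in no gene and 5.58% to 6.73% were ambiguous. These lines were left out.

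GENCODE M21 named 55480 identifiers. Differences were tested with edgeR 4.0.16 (quasi-likelihood F test, TMM, the filterByExpr filter at 10 counts and a total of 15, robust, group as the only term, 20 libraries, two-sided) and adjusted by Benjamini-Hochberg over 16509 genes at 0.05. Each SE of a log2 difference is its absolute value divided by the square root of that test's F. This holds for Gpx3 and Gpx8 too, whose SEs are descriptions for which no p is given. The biological coefficient of variation was 0.747, and 0.635 with the block. DESeq2 1.42.0, limma voom 3.58.1, size factors by RLE, no filter, left-out libraries, months and lengths were alternatives, and those that join the block with left-out replicates, months or libraries were chosen after seeing the data. The tests were checked on simulated data. Log2 CPM used a prior count of 2. The limit given for a count of 0 (3 counts) covers counting error only, as amplified reads were not traced to molecules.

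The replicate numbers were taken to pair the libraries, since the design text gives 2 mice for each replicate and each number carries the same date in all 4 groups. Deviations from group means correlated at a median of 0.264 (-0.0647 to 0.562) in 30 pairs of the same number and -0.0857 in 120 others. Numbers were read as separate pools of mice, which the labels do not state outright. No 2 libraries differed in fewer than 17328 genes.

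The members and lists were chosen with earlier results of these data known. By rule, all 10 members were named, with up to 4 called genes per redox list or the gene of smallest p, and the 3 genes most like each member. Srxn1, Arrdc3, Slc2a1, Selenop and Sod3 came under this rule as genes of smallest p. An item of the redox lists is not reported here.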

Additional observations from a re-analysis of the deposited data

Results flagged for a closer look

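In Lepr+ MPP, Gpx8 had 25.5 CPM in replicate 4, while the other 4 libraries had 1.01 to 4.60 CPM, a gap of 0.854 of the group's range. The same library held the highest Gpx3 (217.1 CPM) and Cxcl12 (598 CPM) of all 20 and was the library least like its group. In the same group Gpx7 had 19.2 CPM in replicate 2, while the other 4 had 12.9 to 13.5 CPM, a gap of 0.908 of the range. Both stand apart by Dixon's criterion for groups of 5, which flags about 1 in 20 groups by chance, and 40 groups were examined.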

How the results depend on the processing

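Without the replicate block, 0 of the 8 tested antioxidant genes were called in each of the 5 comparisons under RLE size factors, no filter, DESeq2, limma voom, single months, only the groups compared where that was fitted, and without 1 library, 1 replicate number or the 3 libraries least like their group. With the replicate block 1 was called between Lepr+ and Lepr- HSC and 3 between Lepr- HSC and Lepr- MPP. With the block and without 1 replicate number the counts were 1 to 1 and 2 to 3. With the block and without the 3 libraries they were 1 and 4. Within June the blocked fit called 0 and 2, and within July 0 and 0, where 2 pairs remained. The block changed no other call among these genes. Counts over all genes moved with the settings, from 17, 33, 451 and 77 genes (Lepr+ over Lepr- HSC, Lepr+ over Lepr- MPP, Lepr- HSC over Lepr- MPP and Lepr+ HSC over Lepr+ MPP) to 169, 17, 1238 and 293 with the block, 199, 244, 877 and 371 in DESeq2 and 0 to 24, 4 to 49, 301 to 556 and 28 to 97 without 1 library. The difference of receptor effects gave 0 genes by the main test and 29 in DESeq2. Of the fold changes of the 8 tested genes recomputed under the alternatives, 1514 kept direction and side of the threshold, 128 moved and 30 passed it newly, all of those with the block. The cause was not tested. Low counts limit Gpx8 in Lepr- MPP, with 27 counts over 5 libraries.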
